A study of Rattus norvegicus with 31 samples.

Results

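The Zfp genes are the rat genes whose name on the array is Zfp followed by a number, and most of them encode zinc finger proteins. Every probe with such a gene name was taken, and it was kept where its red signal was well above the local background on at least 7 of 31 arrays. This kept 235 of 272 Zfp probes, for 171 of 196 gene symbols, among 26702 kept of 41012 probes in all. The choice used detection alone and no difference between groups. Of the 235 probes, 196 were above background on all 31 arrays, 39 on fewer, and 0 were saturated. Just inside the limit, at 7 arrays each, stood Zfp319 and Zfp418, with differences CR-L minus WT of -0.0099 and -0.040 on the log2 scale. Just outside, at 6 arrays each, stood Zfp494 and Zfp498, with 0.016 and -0.076.

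Most Zfp proteins carry arrays of C2H2 fingers, small loops in which a zinc ion is held by a pair of cysteines and a pair of histidines, and which read DNA a few bases at a time. Many of the mammalian ones also carry a KRAB domain, which recruits the corepressor Trim28 and silencing enzymes to the bound site and is known above all for the repression of transposable elements. A few members of the name are of another kind. Zfp36 and its relatives have CCCH fingers, which bind AU-rich elements of mRNAs for inflammatory proteins and bring in the enzymes that remove the poly(A) tail. In blood leukocytes Zfp36 is best known as the brake on the mRNA of tumour necrosis factor.

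The RNA came from the mononuclear fraction of blood (PBMC, lymphocytes with some monocytes) of grown rats, and the series set out to learn whether leptin during suckling changes what food restriction of the mother leaves in her offspring. The CR-L rats (13 arrays) were born to dams fed 20% less on days 1 to 12 of pregnancy and received leptin, a hormone of fat tissue that milk also contains, until postnatal day 21, at daily doses that began at 1.0 ng and ended at 43.8 ng, on average 5 times the intake with milk. The CR rats (11 arrays) were born to dams restricted in the same way and suckled without supplement. The WT rats (7 arrays) were born to dams that were not restricted, and WT in the titles was taken to mean the controls of the protocol. All groups then ate chow freely until blood was drawn at an age of 4 months, and offspring of either sex were used. The 31 samples came from at most 16 litters, and the labels give neither litter, sex nor strain for a sample, so that samples which share a dam are counted as independent and p-values may be too small.

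Each array held the RNA of 1 sample in red and a common pool of PBMC RNA in green, and every value below is a log2 ratio of the sample over that pool unless it is called a difference. The median red intensity of an array lay between 64.6 and 86.5, with 57.5% to 65.0% of red spots well above background, except in WT replicate 6, with 226.5 and 83.6%. On 3 arrays, 1 of each group, the log ratios were far narrower than elsewhere. Their interquartile range over all probes was 0.0525 in CR-L replicate 12, 0.0598 in CR replicate 11 and 0.0655 in WT replicate 1, against 0.170 to 0.383 on the others. Results are therefore also given without them. Among marker probes of blood cells, all 10 T cell, 10 B cell and 5 general leukocyte probes and 11 of 13 monocyte probes were above background on all arrays, as were 6 of 10 granulocyte, 10 of 10 platelet and 8 of 9 erythroid probes.

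Zfp genes moved in small steps and in either direction, and the clearest were a handful that stood higher in the blood cells of restricted offspring than in WT. In CR-L against WT, 15 Zfp probes of 14 genes passed the threshold (limma, Benjamini-Hochberg adjusted p under 0.05 over all 26702 probes), 9 higher and 6 lower. This is 6.38% of the 235 Zfp probes, beside 3.48% of all probes tested (2.04% higher and 1.44% lower). In CR against WT, 4 Zfp probes passed, all higher, or 1.70%, beside 0.483% of all probes (0.378% higher and 0.105% lower). Between CR-L and CR, 0 Zfp probes passed, and 0% of all probes did. At an unadjusted p under 0.05 there were 57 Zfp probes in CR-L minus WT (24.3%, and 16.5% of all probes), 39 in CR minus WT (16.6%, and 12.2% of all) and 4 in CR-L minus CR (1.70%, and 2.22% of all). Both comparisons with WT use the same 7 WT arrays. Without WT replicate 4 the Zfp counts were 8 in CR-L minus WT and 1 in CR minus WT, and without WT replicate 5 they were 9 and 2. Calls over all probes also dropped, to 497 (1.86%) and 20 (0.0749%) without WT replicate 4 and to 539 (2.02%) and 56 (0.210%) without WT replicate 5.

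The Zfp probes did not shift as a body. Their median difference was 0.00015 in CR-L minus WT and -0.00043 in CR minus WT, and the medians of all probes were 0.0094 and 0.011. Differences above 0 made up 50.2% of the Zfp probes in CR-L minus WT, and 54.2% of all probes. The shares in CR minus WT were 49.4% of the Zfp probes and 55.2% of all. A difference of more than 0.2 on the log2 scale was found for 27 Zfp probes (11.5%) in CR-L minus WT, for 13 (5.53%) in CR minus WT and for 0 in CR-L minus CR, where the shares of all probes were 9.31%, 8.05% and 2.06%.

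**Figure D1:**
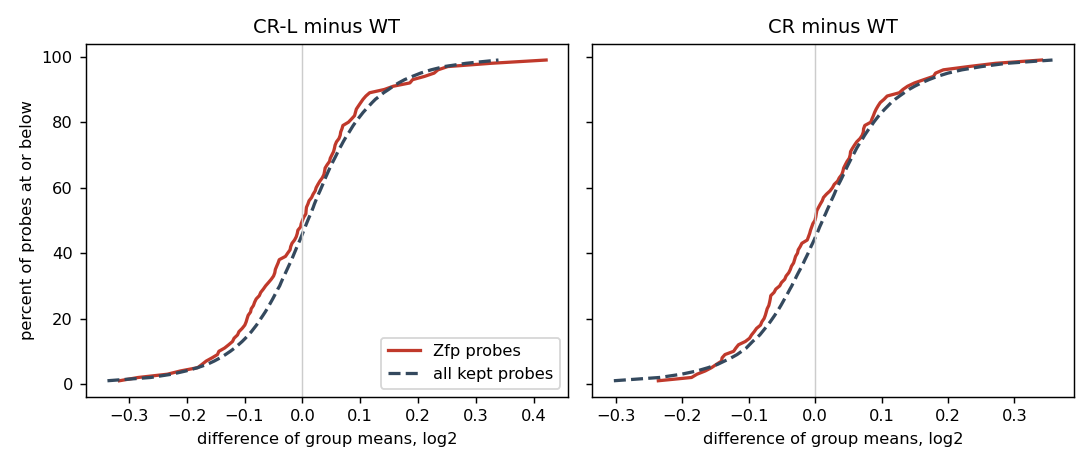
Differences of group means (log2, horizontal axis) at or below which a given percent of probes lies (vertical axis), for the 235 Zfp probes (solid line) and all 26702 kept probes (dashed line), in CR-L minus WT on the left and CR minus WT on the right. The 2 lines lie close together, with Zfp medians of 0.00015 and -0.00043.

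Zfp444, Zfp260, Zfp467 and Zfp566 were the genes that passed in CR-L and in CR, each against WT. Human ZNF444, the counterpart of Zfp444, is a SCAN-domain factor studied at the promoter of a scavenger receptor gene of vessel wall cells. The lowest, median and highest log2 ratios of its probe A_42_P753262 (chr1:66145326-66145385, minus strand, on the rat build rn4, as for all probes) were -0.044, 0.20 and 0.33 in CR-L, 0.023, 0.15 and 0.28 in CR and -0.35, -0.10 and -0.018 in WT. All 11 CR arrays lay above all 7 WT arrays, and the CR-L and WT ranges overlapped only at their ends. The difference was 0.32 ± 0.051 (SE) in CR-L minus WT (adjusted p = 0.000793), a 1.25-fold higher ratio, and 0.30 ± 0.053 in CR minus WT (adjusted p = 0.00649). The other Zfp444 probe, nearer the start of the transcript, did not move with it. It gave 0.0060 ± 0.063 in CR-L minus WT (adjusted p = 0.979) and 0.042 ± 0.065 in CR minus WT (adjusted p = 0.849).

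Zfp260 encodes a factor first found in rat heart cells, where it works beside GATA4. Its downstream probe A_44_P622195 (chr1:85144044-85144103, plus strand) stood at -0.10, 0.13 and 0.45 in CR-L, -0.12, -0.015 and 0.38 in CR and -0.58, -0.36 and -0.10 in WT (lowest, median and highest). All arrays of the restricted groups lay above the WT median, and the ranges overlapped narrowly. The difference was 0.48 ± 0.078 in CR-L minus WT (adjusted p = 0.000927), or 1.4-fold, and 0.40 ± 0.081 in CR minus WT (adjusted p = 0.0167). A second probe nearer the start of the transcript, A_43_P11938 (chr1:85142429-85142488), gave 0.23 ± 0.066 in CR-L minus WT (adjusted p = 0.0415) and 0.26 ± 0.068 in CR minus WT, where it missed the threshold (adjusted p = 0.0685). Zfp260 was the only one of 10 genes with several kept probes and a call in CR-L minus WT of which every probe passed.

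Zfp467 is known from mouse bone marrow, where it turns stromal cells towards fat and away from bone. Probe A_44_P638290 (chr4:76522051-76522110, minus strand) stood at -0.23, 0.022 and 0.31 in CR-L, -0.31, 0.0045 and 0.26 in CR and -0.79, -0.31 and -0.19 in WT. WT arrays were low throughout, WT replicate 4 the lowest, and the highest WT array lay below the CR-L and CR medians. The difference was 0.44 ± 0.078 in CR-L minus WT (adjusted p = 0.00202) and 0.36 ± 0.081 in CR minus WT (adjusted p = 0.0345). The other Zfp467 probe was far noisier (residual SD 0.365, against 0.172) and differed by 0.33 ± 0.16 in CR-L minus WT (adjusted p = 0.298). In CR minus WT it differed by 0.13 ± 0.17 (adjusted p = 0.801).

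Zfp566 has 1 kept probe, A_43_P22881 (chr1:85114472-85114499, minus strand). It stood at -0.22, 0.18 and 0.36 in CR-L, -0.17, 0.15 and 0.25 in CR and -0.43, -0.22 and -0.020 in WT, and WT arrays were all below 0 while most arrays of the restricted groups were above. The difference was 0.39 ± 0.074 in CR-L minus WT (adjusted p = 0.00239) and 0.34 ± 0.077 in CR minus WT (adjusted p = 0.0363). Each of 7 slides held 1 WT array, and on all 7 of them Zfp444 was higher than that array in CR-L (0.24 to 0.54) and in CR (0.20 to 0.45). Zfp566 was higher on 7 of 7 slides in CR-L (0.19 to 0.70) and in CR (0.033 to 0.64). Zfp467 and the downstream probe of Zfp260 were higher on 7 of 7 in CR-L and on 6 of 7 in CR. The slides hold the same arrays that gave the calls, so these counts are not independent of them.

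In CR-L minus WT all 4 stayed past the threshold in each of 15 other analyses and each time 1 array was left out. Among the 15, Aquantile scaling between arrays leaves log ratios unchanged, so its outcome was fixed in advance. In CR minus WT all 4 missed the threshold where the red channel was used alone (adjusted p between 0.0786 and 0.101) and in the authors' value table (between 0.0635 and 0.174). These were the only losses of Zfp444, in 2 of 15 other analyses and 0 of 18 fits without an array. Zfp260 was lost in 5 of 15 and 2 of 18, Zfp467 in 7 of 15 and 9 of 18, and Zfp566 in 8 of 15 and 10 of 18. Without WT replicate 4, adjusted p was 0.0731 for Zfp260, 0.119 for Zfp467 and 0.119 for Zfp566. Without WT replicate 6, the array with the brightest red channel, it was 0.0638 for Zfp260, 0.0847 for Zfp467 and 0.0952 for Zfp566. Without the 3 narrow arrays, 13 Zfp probes passed in CR-L minus WT and 3 in CR minus WT, beside 2.81% and 0.337% of all probes. These Zfp probes were all among the calls made with those arrays. Zfp566 then differed by 0.35 in CR minus WT (adjusted p = 0.0560).

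**Figure D2:**
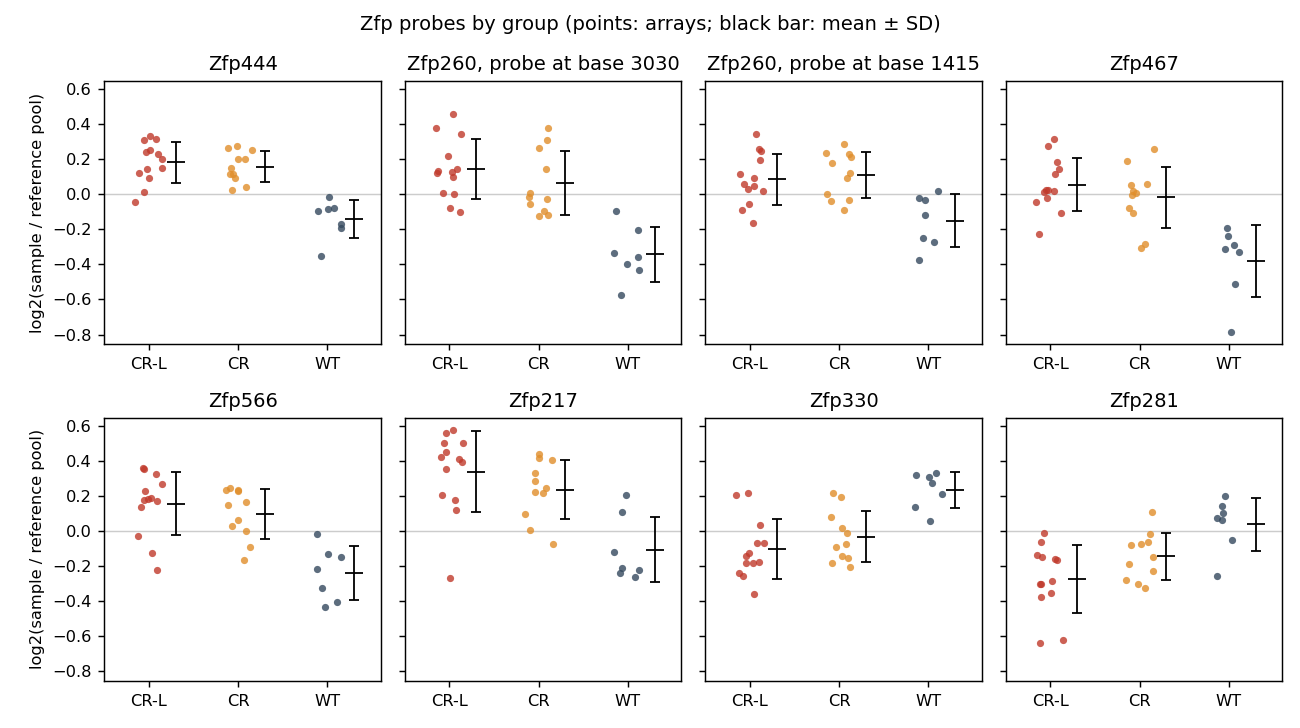
Log2 ratio of sample over reference pool (vertical axis) for 8 Zfp probes in CR-L, CR and WT arrays (points, 13, 11 and 7 arrays), with mean ± SD (black). The WT mean is the lowest of the 3 in the first 6 panels, Zfp444 to Zfp217, and the highest for Zfp330 and Zfp281. For Zfp217, WT replicates 3 and 7 lie above 0, at 0.20 and 0.10.

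Since these 4 genes moved the same way, the 300 bases around their starts are shown, from RefSeq on the build GRCr8, 250 before the start and 50 after it. Lower case is sequence without a match and capitals mark matches, on either strand, to any of 5 short patterns chosen after the values were known. These were the CCAAT box as it is named, the GC box of promoters that Sp1 is known to bind, spelled GGGCGG, the site of the ETS family of factors, spelled CCGGAAG, the response element for cyclic AMP, spelled TGACGTNA with any base at N, and the TATA box near the start of many tissue genes, spelled TATAAA.
Zfp444, chr1:76761401-76761700, minus strand: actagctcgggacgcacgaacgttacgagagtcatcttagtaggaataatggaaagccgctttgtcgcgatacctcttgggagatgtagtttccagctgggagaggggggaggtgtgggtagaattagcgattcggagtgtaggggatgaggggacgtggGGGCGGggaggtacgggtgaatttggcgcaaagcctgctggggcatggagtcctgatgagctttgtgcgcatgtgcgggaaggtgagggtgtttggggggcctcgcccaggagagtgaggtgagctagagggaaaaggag
Zfp260, chr1:94469611-94469910, plus strand: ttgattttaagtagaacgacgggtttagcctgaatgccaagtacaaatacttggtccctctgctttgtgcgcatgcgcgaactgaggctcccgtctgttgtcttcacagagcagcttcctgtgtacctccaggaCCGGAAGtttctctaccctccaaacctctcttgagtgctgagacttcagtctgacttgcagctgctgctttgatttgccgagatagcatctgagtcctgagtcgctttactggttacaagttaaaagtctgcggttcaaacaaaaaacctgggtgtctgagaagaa
Zfp467, chr4:78723086-78723385, minus strand: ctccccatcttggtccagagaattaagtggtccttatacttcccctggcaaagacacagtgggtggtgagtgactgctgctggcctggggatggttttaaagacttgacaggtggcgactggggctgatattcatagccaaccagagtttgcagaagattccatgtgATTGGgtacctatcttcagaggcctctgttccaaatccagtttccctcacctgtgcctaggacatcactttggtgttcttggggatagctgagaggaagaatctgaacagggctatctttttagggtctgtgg
Zfp566, chr1:94460616-94460915, minus strand: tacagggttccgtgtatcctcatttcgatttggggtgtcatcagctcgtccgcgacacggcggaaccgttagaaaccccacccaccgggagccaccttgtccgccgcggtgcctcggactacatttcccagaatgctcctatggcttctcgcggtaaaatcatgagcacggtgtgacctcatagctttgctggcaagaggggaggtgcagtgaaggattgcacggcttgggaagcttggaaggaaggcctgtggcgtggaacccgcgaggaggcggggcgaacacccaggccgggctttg
No pattern was shared by 2 of the 4 windows. Zfp444 held a GC box, Zfp260 an ETS site, Zfp467 a CCAAT box read on the strand opposite the gene (printed as its reverse complement), and Zfp566 none of them. Marked patterns did not overlap each other. The windows also differed in CG pairs, with 17 in Zfp444, 10 in Zfp260, 1 in Zfp467 and 23 in Zfp566. Over the 157 promoters found for 140 of 170 kept Zfp symbols that have a current name the median was 17 CG pairs, and over all 33469 promoters of the table it was 7. An ETS site was found in 24.2% of the Zfp promoters and 8.75% of all, a GC box in 43.9% and 33.1%, a CCAAT box in 39.5% and 37.5%, a TGACGTNA match in 4.46% and 3.25%, and a TATA box in 9.55% and 14.2%. A match is a run of letters and says nothing of whether a factor sits there.

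Zfp566 and Zfp260 are neighbours on chromosome 1, where 56 of the kept Zfp probes lie (24.3% of those with a position on rn4, beside 11.8% of all probes). Their starts on GRCr8 are 9196 bases apart and the genes point away from each other, Zfp566 on the minus strand and Zfp260 on the plus strand. The next Zfp genes on that stretch did not pass. Differences in CR-L minus WT were -0.11, 0.14 and 0.21 for the 3 probes of Zfp84, 0.043 for Zfp27, 0.037 for Zfp74, -0.16 for Zfp14 (adjusted p = 0.092) and 0.064 for Zfp382 on the far side of Zfp260. Genes above and below 0 lay side by side on this stretch.

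Among the genes that passed in CR-L minus WT alone, Zfp217 differed most. Human ZNF217 is a repressor that binds CtBP and is amplified in breast tumours. Probe A_43_P15012 (chr3:161148791-161148850, minus strand) stood at -0.27, 0.41 and 0.58 in CR-L, -0.073, 0.25 and 0.44 in CR and -0.26, -0.21 and 0.20 in WT. CR-L replicate 10, at -0.27, lay at the level of the lowest WT arrays. CR-L replicates 1 (0.12) and 9 (0.18) lay below WT replicate 3 (0.20), and the other CR-L arrays lay above all WT arrays. The difference was 0.45 ± 0.091 in CR-L minus WT (adjusted p = 0.00467), and 0.34 ± 0.094 in CR minus WT did not pass (adjusted p = 0.0795). The probes nearer the start of Zfp217 gave 0.067 ± 0.089 and 0.11 ± 0.067 in CR-L minus WT (adjusted p = 0.78 and 0.433).

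Zfp238, now Zbtb18, is a BTB-domain repressor needed for the mouse cortex. Its downstream probe A_44_P216687 (chr13:93349070-93349130) stood at -0.30, -0.0074 and 0.28 in CR-L, -0.16, 0.0059 and 0.29 in CR and -0.29, -0.24 and -0.080 in WT. All WT arrays were below 0, and the differences were 0.24 ± 0.060 in CR-L minus WT (adjusted p = 0.0224) and 0.23 ± 0.062 in CR minus WT (adjusted p = 0.0721). The upstream probe of Zfp238 differed by 0.0065 ± 0.061 in CR-L minus WT. Zfp207, whose human counterpart binds Bub3 at the kinetochore, had -0.19, 0.0068 and 0.32 in CR-L, -0.10, -0.0067 and 0.17 in CR and -0.25, -0.22 and -0.038 in WT at probe A_42_P455078 (chr10:68624972-68625031). Its differences were 0.21 ± 0.055 in CR-L minus WT (adjusted p = 0.0286) and 0.20 ± 0.057 in CR minus WT (adjusted p = 0.0996), and its other probes gave 0.069 and 0.092 in CR-L minus WT. Zfp672 completed the higher genes, with 0.25 ± 0.066 in CR-L minus WT at probe A_44_P354665 (chr10:43953823-43953882, adjusted p = 0.0279) and 0.18 ± 0.068 in CR minus WT (adjusted p = 0.241). The second Zfp672 probe gave 0.033 ± 0.052 in CR-L minus WT.

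The lower genes were led by Zfp330, whose human counterpart is known as a nucleolar autoantigen. Probe A_42_P768776 (chr19:27059452-27059511, plus strand) stood at -0.36, -0.14 and 0.22 in CR-L, -0.20, -0.074 and 0.22 in CR and 0.056, 0.27 and 0.33 in WT. All WT arrays were above 0 and most arrays of the restricted groups were below, with 2 CR-L arrays and 3 CR arrays inside the WT range. On 7 of 7 slides it was lower than the WT array of the slide, in CR-L (-0.58 to -0.060) and in CR (-0.45 to -0.019). These arrays are again those that gave the call. The difference was -0.34 ± 0.069 in CR-L minus WT (adjusted p = 0.00485), and -0.27 ± 0.071 in CR minus WT did not pass (adjusted p = 0.0736). The upstream Zfp330 probe gave -0.089 ± 0.082 in CR-L minus WT (adjusted p = 0.652).

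Zfp281 is known from mouse embryonic stem cells, where it controls genes of the pluripotent state. Its probe A_44_P487355 (chr13:49703716-49703775, plus strand) stood at -0.64, -0.28 and -0.011 in CR-L, -0.32, -0.15 and 0.11 in CR and -0.26, 0.075 and 0.20 in WT. Every CR-L array was below 0, while 5 of 7 WT arrays were above. The difference was -0.31 ± 0.076 in CR-L minus WT (adjusted p = 0.0156) and -0.18 ± 0.078 in CR minus WT (adjusted p = 0.319). Zfp295, now Zbtb21 and in human cells a BTB-domain repressor, gave -0.29 ± 0.078 in CR-L minus WT at probe A_44_P429476 (chr11:37961650-37961709, adjusted p = 0.0316) and -0.16 ± 0.080 in CR minus WT (adjusted p = 0.432). Its other probes, which are listed for a longer transcript and have no position on rn4, gave -0.21 and -0.060 in CR-L minus WT.

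Zfp472 (A_44_P273796, chr7:13660903-13660962) fell by 0.32 on the log2 scale in CR-L against WT (adjusted p = 0.0325), with -0.33, -0.16 and 0.34 in CR-L, -0.31, 0.038 and 0.28 in CR and 0.015, 0.22 and 0.45 in WT. In CR minus WT Zfp472 differed by -0.24 ± 0.089, which did not pass (adjusted p = 0.226). Zfp799 (A_44_P100197, chr7:13478408-13478467) differed by -0.18 ± 0.050 in CR-L minus WT (adjusted p = 0.0338) and by almost the same -0.18 ± 0.051 in CR minus WT, where it did not pass (adjusted p = 0.0996). Zfp91 encodes a ubiquitin ligase that acts on the kinase NIK of the noncanonical NF-kB pathway, as known from human cells. Of its 4 probes, A_44_P337606 (chr1:215849732-215849791) passed, at -0.20 ± 0.058 in CR-L minus WT (adjusted p = 0.0422). The others gave -0.22, 0.0017 and -0.083 from the start of the transcript to its end. The passing probe differed in CR minus WT by -0.14 ± 0.060 (adjusted p = 0.339).

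**Figure D3:**
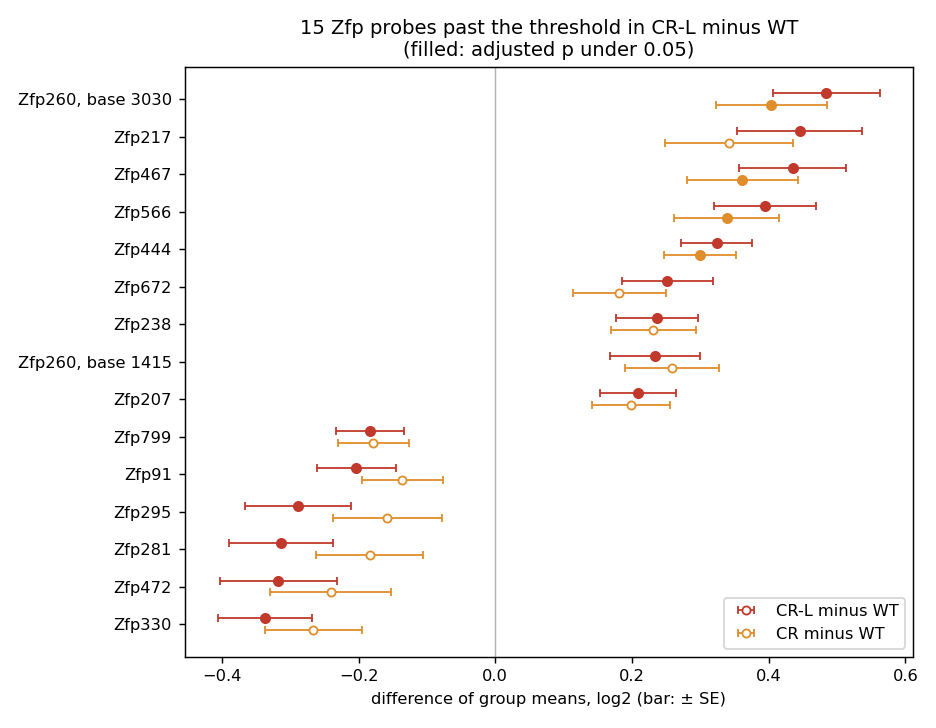
Difference of group means (log2, horizontal axis) with its SE for the 15 Zfp probes past the threshold in CR-L minus WT, with the same probes in CR minus WT below each. Filled points have an adjusted p under 0.05. The CR points lie on the same side of 0 as the CR-L points, which share the WT arrays, and 4 of them are filled.

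Of the calls in CR-L minus WT, those of Zfp444, Zfp260 (downstream probe), Zfp467, Zfp566 and Zfp217 held in all 15 alternatives and with each array left out. The Aquantile alternative, with log ratios unchanged, adds nothing to these counts. Zfp330 and Zfp281 were each lost in 1 of 15 alternatives and in 0 of 20 fits without an array. Lost most often was Zfp91, in 9 of 14 alternatives and 10 of 20 fits without an array. The upstream probe of Zfp260 was lost in 7 of 14 and 9 of 20. Zfp799 was lost in 5 of 15 and 9 of 20, Zfp207 in 7 of 15 and 4 of 20 and Zfp472 in 5 of 15 and 6 of 20. Zfp295 was lost in 3 of 14 and 6 of 20, Zfp672 in 3 of 15 and 4 of 20 and Zfp238 in 3 of 15 and 1 of 20.

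In CR minus WT the rule for named genes also took probes that did not pass but had an unadjusted p under 0.01. Besides the probes given above these were Zfp367, studied in human erythroid cells, with -0.30 ± 0.089 at its upstream probe (adjusted p = 0.107) and -0.043 ± 0.063 at its downstream probe, and Zfp26, with -0.17 ± 0.059 (adjusted p = 0.176). One of the 31 values of the upstream Zfp367 probe, in CR, was missing and was left out of its fit. Probes with an adjusted p between 0.05 and 0.1 in CR-L minus WT were Zfp367 (-0.28), Zfp26 (-0.18), Zfp14 (-0.16), Zfp280d (-0.17) and Zfp622 (-0.14), all below 0, and Zfp146 (0.23), Zfp3 (0.26) and Zfp689 (0.19), all above 0. Between CR-L and CR the smallest unadjusted p belonged to Zfp746, known as PARIS and as a repressor of Pgc-1alpha in neurons of mouse and human. It stood at -0.10, 0.00022 and 0.14 in CR-L and -0.00068, 0.11 and 0.29 in CR, a difference of -0.10 ± 0.034 (unadjusted p = 0.00844, adjusted p = 1.00). Its other probe gave 0.0071 ± 0.040. Zfp483 differed by 0.13 ± 0.047 in CR-L minus CR (unadjusted p = 0.00968, adjusted p = 1.00).

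For the 4 genes higher in CR-L and in CR, the difference CR-L minus CR had a 95% confidence interval of -0.067 to 0.12 for Zfp444, -0.059 to 0.22 for the downstream probe of Zfp260, -0.066 to 0.21 for Zfp467 and -0.077 to 0.19 for Zfp566, each taken alone. For Zfp330 the interval was -0.19 to 0.053, for Zfp217 -0.059 to 0.27 and for Zfp281 -0.26 to 0.0045. Each interval contained 0. A missing call between CR-L and CR does not show that the groups were alike.

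Different probes of a gene often disagreed. Of 171 symbols, 119 had 1 kept probe and 52 had several (116 probes). In CR-L minus WT, the probes of 34 of those 52 genes all lay on the same side of 0, and the median gap between the highest and lowest probe of a gene was 0.096 on the log2 scale, with a largest gap of 0.38. Of 10 genes with a called probe among several, 9 had all probes on the same side, and only Zfp260 had every probe called. In Zfp444 the difference was 0.32 at base 1439 of its transcript and 0.0060 at base 439.

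**Figure D4:**
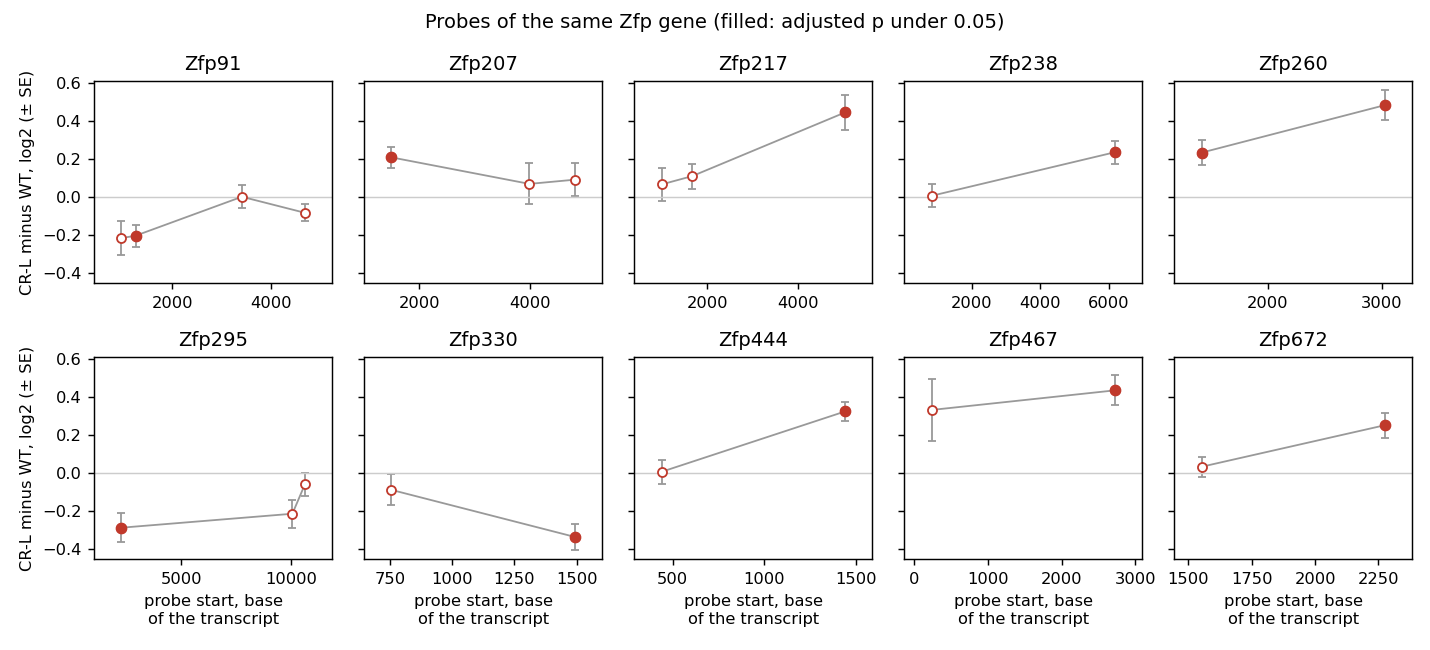
CR-L minus WT difference (log2, ± SE, vertical axis) of each kept probe against its start in the transcript it is listed for (bases, horizontal axis; different transcripts of 1 gene in Zfp207, Zfp217, Zfp238 and Zfp295) for the 10 Zfp genes with several kept probes and a called one. Filled points have an adjusted p under 0.05. In Zfp217, Zfp238, Zfp444, Zfp467 and Zfp672 the filled higher probe is the most downstream, in Zfp207 it is the most upstream, and in Zfp260 both probes are filled.

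Position in the transcript went with the direction of the calls over the whole array. Among RefSeq transcripts to which several probes were assigned and of which exactly 1 was called in CR-L minus WT, the called probe was the most downstream in 101 of 117 that were higher (86.3%) and in 21 of 82 that were lower (25.6%). For Zfp transcripts it was the most downstream in 3 of 3 that were higher and 1 of 2 that were lower. Counted by gene, with probes listed for different transcripts of a gene pooled, it was the most downstream in 5 of 6 higher Zfp genes, with Zfp207 the exception, and in 1 of 3 lower ones, beside 131 of 157 higher (83.4%) and 21 of 98 lower (21.4%) over all genes. The mean of the most downstream minus the most upstream probe, over 40 Zfp transcripts with probes at least 300 bases apart, was below 0 on 5 of 13 CR-L arrays, 4 of 11 CR arrays and 7 of 7 WT arrays. The lowest, median and highest of these means were -0.045, 0.016 and 0.17 in CR-L, -0.062, 0.019 and 0.067 in CR, and -0.12, -0.060 and -0.0057 in WT. The 40 Zfp transcripts include called ones such as Zfp444, so their means are not independent of those calls. For 2372 other transcripts the mean was below 0 on 6 of 13 CR-L arrays, 5 of 11 CR arrays and 6 of 7 WT arrays. The medians for these other transcripts were 0.0032 in CR-L, 0.014 in CR and -0.033 in WT. That mean of the other transcripts was then used as a covariate, chosen after the data had been seen. With it 11 Zfp probes passed in CR-L minus WT, 8 of them among the 15, beside 1.72% of all probes. The downstream probe of Zfp260 then differed by 0.44 (adjusted p = 0.00878) and its upstream probe by 0.34 (adjusted p = 0.00646), and Zfp444, Zfp467, Zfp566, Zfp217, Zfp330 and Zfp799 also stayed past the threshold. Only 2 Zfp probes passed in CR minus WT, Zfp444 and the upstream probe of Zfp260, beside 0.21% of all probes.

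**Figure D5:**
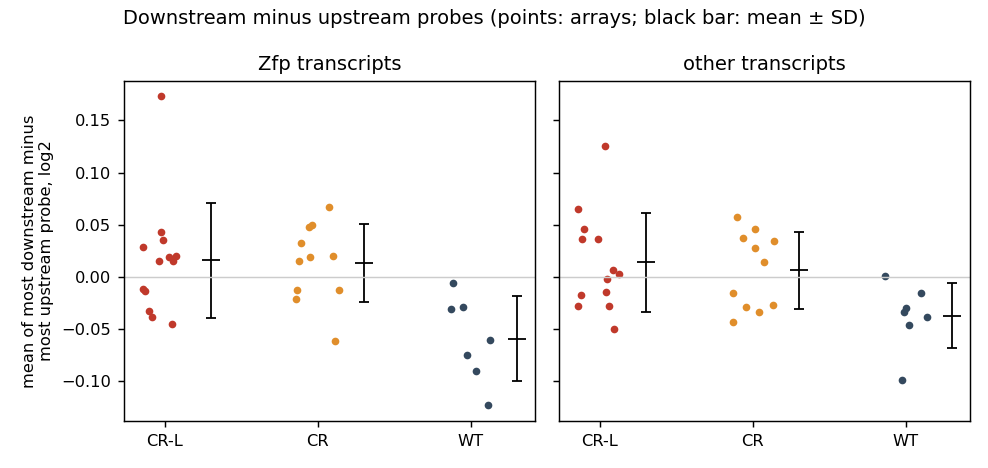
Mean log2 difference between the most downstream and the most upstream probe of a transcript (vertical axis) on each CR-L, CR and WT array (points), with mean ± SD (black), for 40 Zfp transcripts on the left and 2372 other transcripts on the right. All 7 WT arrays lie below 0 for Zfp transcripts and 6 of 7 for other transcripts, while CR-L and CR arrays lie on either side in both.

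Some probes hold the end of a zinc finger in their own letters. Of the 235 kept Zfp probes, 30 (12.8%) had an open reading frame with the codon pattern that ends a C2H2 finger, against 0.653% of all 41012 probes. Probes elsewhere in a finger were not counted. Their median CR-L minus WT difference was -0.0023 (14 above 0 and 16 below), and 0.0017 for the other 205. Among these 30, 2 passed in CR-L minus WT, as did 13 of the other 205, beside 3.48% of all probes. The 2 were the upstream probe of Zfp260 and probe A_44_P337606 of Zfp91. They are shown with the upstream probe of Zfp672, which did not pass, as examples of what these probes read. Capitals run from the leucine codon through the second histidine codon at the end of a finger, and positions are those of rn4.
Zfp260, chr1:85142429-85142488, plus strand: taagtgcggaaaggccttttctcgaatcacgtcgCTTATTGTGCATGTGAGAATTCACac
Zfp91, chr1:215849732-215849791, minus strand: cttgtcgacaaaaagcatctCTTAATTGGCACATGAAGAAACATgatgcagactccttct
Zfp672, chr10:43954547-43954606, minus strand: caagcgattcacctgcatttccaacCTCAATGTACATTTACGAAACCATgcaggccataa
The Zfp260 probe differed by 0.23, the Zfp91 probe by -0.20 and the Zfp672 probe by 0.033 in CR-L minus WT.

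The CCCH members that govern mRNA decay did not pass in any comparison. Zfp36 stood at -0.40, 0.11 and 0.25 in CR-L, -0.13, 0.070 and 0.30 in CR and 0.029, 0.16 and 0.35 in WT, and its differences were -0.095 ± 0.079 in CR-L minus WT and -0.10 ± 0.081 in CR minus WT (adjusted p = 0.608 and 0.674). Zfp36l1 had -0.43, 0.066 and 0.29 in CR-L, -0.30, -0.0045 and 0.22 in CR and -0.38, -0.27 and 0.055 in WT, with differences of 0.23 ± 0.086 and 0.18 ± 0.088 (adjusted p = 0.154 and 0.407). Zfp36l2 had the most variable of all Zfp probes, A_44_P115932, with a residual SD of 0.484, against a median of 0.128 over the 235. Its other probe had 0.300. Its values at probe A_44_P115932 were -0.81, -0.14 and 0.48 in CR-L, -0.70, -0.13 and 1.07 in CR and -0.52, 0.086 and 0.98 in WT, and the differences of -0.35 ± 0.21 and -0.23 ± 0.22 did not pass (adjusted p = 0.441 and 0.736). Next in residual SD came Zfp467 (upstream probe, 0.365), Zfp654 (0.307), the other Zfp36l2 probe and Zfp61 (0.292). At Zfp654, CR-L replicate 2 stood at 1.44 and the other CR-L arrays between -0.24 and 0.26.

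Other gene lists were set beside the Zfp36 family. Of 43 probes for the decay machinery that Zfp36 proteins recruit, 4 passed in CR-L minus WT (9.30%, beside 3.48% of all probes), all lower. In CR minus WT 1 passed (2.33%, beside 0.483%). The list as a whole was not lower, with a median difference of 0.017 in CR-L minus WT and 24 of 43 probes above 0. The 4 were Cnot6 (-0.28 ± 0.053, adjusted p = 0.00240) and Cnot7 (-0.33 ± 0.061, adjusted p = 0.00231), deadenylases of the CCR4-NOT complex, and the decapping cofactors Dcp1a (-0.23 ± 0.063, adjusted p = 0.0316) and Edc3 (-0.34 ± 0.072, adjusted p = 0.00610). Edc3 also passed in CR minus WT (-0.35 ± 0.074, adjusted p = 0.0254). Of 36 probes for immediate early and NF-kB genes, many of which have AU-rich mRNAs, 11 passed in CR-L minus WT, all lower. This was 30.6%, beside 1.44% of all probes called lower. In CR minus WT 1 passed, Traf6, also lower (2.78%, beside 0.105% of all probes). Over the 36 probes the median difference was -0.25 in CR-L minus WT and -0.24 in CR minus WT. Among them were the mRNAs of the chemokine Ccl3 (-0.72 ± 0.15), the NF-kB inhibitors Tnfaip3 (-0.71 ± 0.18) and Nfkbia (-0.64 ± 0.17), and tumour necrosis factor, Tnf (-0.22 ± 0.062, adjusted p = 0.0409). The mean of this list ran between -0.67 and 0.27 on CR-L arrays, -0.35 and 0.22 on CR arrays and 0.034 and 0.32 on WT arrays. Earlier results of these data had already shown several of its genes when the list was drawn up. Its share of calls is therefore not an independent result.

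Of 39 probes for the machinery that KRAB proteins recruit, 1 passed in CR-L minus WT, the heterochromatin protein Cbx1 (0.26 ± 0.071, adjusted p = 0.0347), and 0 in CR minus WT. An unadjusted p under 0.05 was found for 6 of them in CR-L minus WT (15.4%, and 16.5% of all probes) and for 8 in CR minus WT (20.5%, and 12.2% of all). The median differences of that list were 0.024 and 0.042. Other zinc finger families on the array had 6 of 37 Zbtb probes called in CR-L minus WT (3 higher and 3 lower), 1 of 22 Klf probes (lower), 1 of 9 Zscan or Zkscan probes (higher) and 0 of 2 Znf probes, beside 3.48% of all probes. The counts in CR minus WT were 2, 0, 0 and 0, beside 0.483% of all probes.

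Groups by role were made after the values were known, and none was tested as a set. In CR-L minus WT, where 6.38% of the Zfp probes and 3.48% of all probes were called, their shares rest on few probes. There 8 genes of RNA and protein turnover (14 probes) had 1 call, that of Zfp91 (7.14%). The median difference of these turnover genes was -0.089. They include Zfp622, which helps assemble the large ribosomal subunit (-0.14 ± 0.045, adjusted p = 0.0727), and Zfp598, which senses collided ribosomes (-0.054 ± 0.045, adjusted p = 0.612). Of 5 genes tied to fat cells and metabolism in mouse or human (8 probes) Zfp467 alone had a call, at 1 probe (12.5%). Zfp423, a driver of fat cell commitment in mouse, was above background on 16 arrays and differed by -0.11 ± 0.061. Zfp521, its antagonist there, was above background on 12 arrays and differed by -0.13 ± 0.093, and the 2 probes of Zfp638 gave -0.017 and 0.077. BTB-domain members (9 probes of 4 genes) had 2 calls (22.2%), Zfp238 higher and Zfp295 lower. Zfp131 (-0.011 and -0.048) and Zfp161 (-0.067 and 0.058) did not pass. Zfp445, which guards imprinted regions in mouse and human, gave -0.10 and -0.12, and the kidney repressor Zfp354a of the rat gave 0.10 ± 0.13, none of them past the threshold.

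In bulk RNA, fewer cells of a type and less RNA per cell cannot be told apart. B cell markers (10 probes of 8 genes) had a median difference of -0.28 in CR-L minus WT and -0.17 in CR minus WT with 0 probes called, and their mean ran between -0.85 and 0.27 in CR-L, -0.88 and 0.39 in CR, and -0.44 and 0.28 in WT. The medians for natural killer and cytotoxic markers (8 probes) were 0.18 and 0.13, for T cell markers (10 probes) 0.046 and 0.11, and for monocyte markers (13 probes) -0.075 and -0.15, with 0 probes called. Granulocyte markers (10 probes) had medians of -0.21 and -0.31, and 0 of them were called. Markers of red cells and platelets varied most between arrays. Erythroid markers (9 probes) had medians of 0.33 in CR-L minus WT, with 9 of 9 above 0, and -0.21 in CR minus WT, with 9 of 9 below 0, and their mean ran between -2.53 and 1.68 in CR-L, -2.22 and 0.96 in CR, and -1.21 and 0.23 in WT. Platelet markers (10 probes) had medians of 0.012 and 0.44, with 10 of 10 above 0 in CR minus WT, and their mean ran between -2.72 and 0.84 in CR-L, -0.55 and 0.75 in CR, and -1.46 and 0.27 in WT. In neither list was a probe called (0 of 9 and 0 of 10). With the means of the T cell, B cell, monocyte and granulocyte markers as covariates, 9 Zfp probes passed in CR-L minus WT (7 higher), all 9 among the 15. In CR minus WT 1 passed (Zfp444, 0.29, adjusted p = 0.0481). Of all probes, 2.58% and 0.0674% passed in these fits. The downstream probe of Zfp260 then differed by 0.38 in CR-L minus WT (adjusted p = 0.00459), Zfp217 by 0.47, Zfp566 by 0.34 and Zfp330 by -0.31. The probes that missed the threshold in that fit kept their direction, Zfp672 at 0.19, the upstream probe of Zfp260 at 0.17, Zfp295 at -0.22, Zfp472 at -0.25, Zfp799 at -0.19 and Zfp91 at -0.17. With the platelet and erythroid means as further covariates, added after the data had been seen, 6 Zfp probes passed in CR-L minus WT, beside 1.09% of all probes, all 6 among the 15. They were Zfp444 (0.37, adjusted p = 0.00740), the downstream probe of Zfp260 (0.39, adjusted p = 0.0143), Zfp467 (0.46), Zfp566 (0.37), Zfp217 (0.51) and Zfp281 (-0.35), and Zfp330 differed by -0.34 (adjusted p = 0.0526). In CR minus WT Zfp444 alone passed there (0.31, adjusted p = 0.0207), beside 0.139% of all probes.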

How the data were processed

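PBMC RNA was measured on 31 Agilent 2-colour arrays, 1 sample each in Cy5, with a Cy3 pool that, per the labels, was made from 5 random samples of each group, without a dye swap. The authors deposited scanner files with spot and local background intensity and a log10 ratio of red over green, per the file headers, extracted with Agilent Feature Extraction 10.7.3.1 per the submitters' processing notes. They also deposited a table of log2 values (26665 rows), whose normalization is not given in the sources used here. Its columns tracked the log2 red intensity (correlation at least 0.993) and each had a median of 8.17.

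Mean spot intensities were corrected with limma 3.58.1 (R 4.3.3) by normexp, offset 50, and normalized by loess within arrays. Control spots (1639 of 45018) and outlier spots (0.408% of values) were left out, spots of a probe averaged, and probes well above background on at least 7 arrays kept. Group means were compared over all 31 arrays with lmFit and eBayes, two-sided, with Benjamini-Hochberg adjustment over 26702 probes and a threshold of 0.05. The fit was tested on simulated data. All probes of a gene were kept apart. Of the 235 probes, 218 kept their name in RefSeq, 16 (9 symbols) have a new one and 1 was not found. Positions are those of the files, on rn4, and promoters come from RefSeq on GRCr8. The groups lay on 8 slides, of which 7 held 1 WT array each, scanned on 1 day.

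The gene set, lists and tests were chosen with earlier results of these data known. Named were all called Zfp probes, those at an unadjusted p under 0.01 up to 5 per direction, the Zfp36 family, Zfp260, Zfp467, the other probes of named genes and the 5 largest residual SDs. Genes given by role and on the Zfp566 stretch were added after their values were seen. Alternatives were other scalings, filters, blocks, covariates and sample sets. Of the scalings, Aquantile between arrays changes intensities alone and leaves the log ratios as they are. A planned split by protein domain was not made, because no protein sequences were used here.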

Additional observations from a re-analysis of the deposited data

Results flagged for a closer look

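In 5 of 41 named Zfp probes, 1 of the 7 WT arrays lay far from the others by Dixon's ratio. Chance alone would give this in about 1 group in 20 for independent groups chosen without regard to their values. The 41 probes were partly chosen by their values and share the same arrays, so that rate does not apply to them. For the upstream probe of Zfp330, WT replicate 7 stood at -0.44 and the other WT arrays between 0.051 and 0.21. For Zfp654 it stood at -0.33 and the others between 0.031 and 0.25. For Zfp483, WT replicate 6, the array with the brightest red channel, stood at -0.42 and the others between -0.096 and 0.084. Of the Zfp91 probes, A_42_P755052 had WT replicate 2 at 0.42 with the others between -0.046 and 0.15, and A_44_P972929 had WT replicate 3 at -0.24 with the others between -0.080 and 0.033. None of these 5 probes passed the threshold in any comparison. The groups CR-L and CR hold more than 10 arrays and were not examined in this way.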

How the results depend on the processing

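None of the called Zfp differences changed sign in any alternative, which was examined for the called probes and those at an unadjusted p under 0.01. In CR-L minus WT the 15 called Zfp probes became 9 with the cell lineage means as covariates, 6 with platelet and erythroid means added to them, and 11 to 20 in the other alternatives. With Feature Extraction's log ratio 7 of 18 calls were higher, against 9 of 15, and without background subtraction 9 of 20. All called probes numbered 688 with the cell lineage means, 458 with the downstream index as a covariate and 292 with the platelet and erythroid means, against 930. They numbered 970 with Feature Extraction's log ratio and 1152 without background subtraction. In CR minus WT the 4 calls became 2 with Feature Extraction's log ratio, 0 with the red channel alone, 0 with the deposited value table, 2 with slide as a block, 8 when only the 2 groups were fitted, 1 with lineage covariates, 1 with platelet and erythroid means added and 2 with the downstream index. Over all probes 129 calls there became 43 with the red channel, 0 with the value table, 208 with probes above background on all 31 arrays, 264 with the replicate block, 231 with the 2 groups alone, 18 with lineage covariates, 37 with platelet and erythroid means added and 56 with the index. Leaving out 1 array gave 8 (WT replicate 4) to 19 (CR-L replicate 10) Zfp calls in CR-L minus WT, beside 1.86% and 4.85% of all probes. In CR minus WT it gave 1 (WT replicate 4) to 7 (CR replicate 9), beside 0.0749% and 0.925% of all probes. In CR-L minus CR it gave 0 to 0, and every alternative there had 0. Without WT replicate 5 the count in CR-L minus WT was 9. In CR minus WT it was 1 or 2 without WT replicate 2, 4, 5 or 6 or CR replicate 3, 4, 6, 7 or 8. Same-numbered samples showed no clear pairing, though so few pairs without litter labels cannot exclude it. Correlations of the deviations in such pairs had medians of 0.060 (CR-L and WT), 0.048 (CR and WT) and 0.047 (CR-L and CR). They exceeded 0.1 in 3 of 7 pairs of CR-L and WT, 1 of 7 of CR and WT and 3 of 11 of CR-L and CR. With the replicate number as a block the Zfp counts were 18, 6 and 0, beside 4.14%, 0.989% and 0% of all probes. The number of arrays and red signals near background limit the precision.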
